A study of Mus musculus with 6 samples.

Results

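Oas1a, Oas2, Oas3, Oasl1 and Oasl2 are 5 genes of the mouse oligoadenylate synthetase family, and they were followed here in brain microglia from mice with experimental autoimmune encephalomyelitis (EAE), an induced immune attack on brain and spinal cord. The genes were chosen by symbol in the platform annotation, to be read from the probe set with the highest mean, and make up 5 of 19505 named genes. Each had 1 probe set out of 22206, so no choice between probe sets arose.

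Oligoadenylate synthetases are interferon-induced enzymes that bind double-stranded RNA, a common sign of viral infection, and then join ATP into short oligoadenylates. These molecules are a signal of infection inside the cell, which leads to RNA decay and a stop of translation. In the brain the family is best known from viral infection, and its transcripts are also widely read as a sign that microglia have received an interferon signal.

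The first group came from mice with a conditional knock-out in B cells (CKO), in a study whose title concerns B cells that produce the cytokine GM-CSF. The sources used here name neither the deleted gene nor the line that drives its deletion. The second group was labelled control, with no further genotype. Female C57BL/6 mice were used in both groups, at an age that these sources leave out. All were immunized under the skin with 100 µg of recombinant myelin oligodendrocyte glycoprotein in 100 µL of incomplete adjuvant. They also received 300 ng of pertussis toxin in a vein at immunization and again after 48 h, and brain microglia were collected at the height of disease. There were 3 CKO and 3 control samples with 1 array each, and this small number limits precision. Nothing in the labels says that replicates came from separate animals. P-values therefore measure the spread among these samples alone, and that spread may be technical. The comparison asks how the microglia of CKO mice differ from those of control mice.

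Several facts of the arrays bear on the values below. The spread of the deposited log2 values was narrow on CKO replicates 2 and 3 (interquartile range 3.08 and 3.11), while it was 3.66 to 4.0 on the remaining 4 arrays. Microglial markers were present, with P2ry12 at 19.65 to 19.72 on CKO arrays and 18.76 to 19.35 on control arrays. Markers of other cells were not absent: Ngp, a neutrophil granule gene, reached 19.51 to 19.55 on CKO arrays and 19.23 to 19.67 on control arrays. Astrocyte markers stood highest on CKO replicate 1 and control replicate 2, with Slc1a2, a glutamate transporter, at 16.92 and 15.02 there and at 10.79 to 12.90 on the other 4. The mean levels of oligodendrocyte and neuronal markers were also highest on that pair of arrays. In such bulk samples, fewer cells of a type and less RNA per cell cannot be told apart.

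The stretch of DNA ahead of a gene is where the interferon-activated factor ISGF3 and the IRF proteins are known to bind, at a pattern called the interferon-stimulated response element. Promoter windows of 300 bases, from 250 before to 50 after the start, were taken from RefSeq (GRCm38.p6) and held 8 of the 12 Oas genes on the array, among them 4 of the 5 members. The pattern searched was GAAANNGAAA, or TTTCNNTTTC on the other strand, where N is any base. It occurred in 3.44% of all 32851 windows of that length. Among the Oas windows it was found in those of Oas1a, Oas1g, Oas1c and Oas3, and these are printed because they carry the sequence shared within the family. Capitals mark the letters of the pattern, and each window reads 5′ to 3′ along its gene.
Oas1a (chr5:120907476-120907775, minus strand): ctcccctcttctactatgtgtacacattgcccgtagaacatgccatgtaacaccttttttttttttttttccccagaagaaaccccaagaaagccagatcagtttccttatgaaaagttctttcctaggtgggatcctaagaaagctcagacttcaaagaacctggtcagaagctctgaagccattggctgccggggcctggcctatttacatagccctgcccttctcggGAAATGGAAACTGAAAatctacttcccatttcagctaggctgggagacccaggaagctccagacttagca
Oas1g (chr5:120887564-120887863, minus strand): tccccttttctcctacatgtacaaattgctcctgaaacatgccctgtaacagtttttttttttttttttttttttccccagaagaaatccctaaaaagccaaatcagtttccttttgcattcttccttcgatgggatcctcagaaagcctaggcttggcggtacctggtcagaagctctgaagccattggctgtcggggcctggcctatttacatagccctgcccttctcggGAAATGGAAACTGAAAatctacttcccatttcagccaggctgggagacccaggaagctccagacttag
Oas1c (chr5:120812465-120812764, minus strand): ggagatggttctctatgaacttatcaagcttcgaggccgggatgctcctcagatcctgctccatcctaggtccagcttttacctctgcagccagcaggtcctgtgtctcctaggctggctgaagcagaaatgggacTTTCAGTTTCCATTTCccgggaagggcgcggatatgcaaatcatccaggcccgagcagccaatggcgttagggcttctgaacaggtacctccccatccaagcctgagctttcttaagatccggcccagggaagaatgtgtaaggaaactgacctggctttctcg
Oas3 (chr5:120777610-120777909, minus strand): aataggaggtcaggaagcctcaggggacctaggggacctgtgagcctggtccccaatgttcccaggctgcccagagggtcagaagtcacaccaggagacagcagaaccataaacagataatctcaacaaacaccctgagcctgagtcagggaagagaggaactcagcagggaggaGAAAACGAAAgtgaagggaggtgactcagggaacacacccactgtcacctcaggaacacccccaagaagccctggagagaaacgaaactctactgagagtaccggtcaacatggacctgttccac

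The Oas1a and Oas1g windows each held a pair of overlapping matches that form 1 run of 16 letters, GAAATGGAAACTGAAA, whose first base lay 20 and 18 bases before the start. Over their whole length these windows were identical at 85.3% of aligned positions. Oas1c held the same 16 letters on the opposite strand, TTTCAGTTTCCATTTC, on the side that faces its neighbour Oas1b in the gene order. The run occurred in windows of 5 genes among all windows of the genome table. Oas3 held a single match, 75 bases before its start, with other letters in the middle. The letters of the pattern were not found in the windows of Oasl1, Oasl2, Oas1f and Oas1h. A match is a description of the letters and not a shown binding site.

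All 5 synthetase genes had lower mean values in microglia of CKO mice than in those of control mice. Differences were large for Oasl2, Oas2 and Oas1a, from 4.03-fold to 6.76-fold, and small for Oas3 and Oasl1. None of the 5 passed limma's test at an adjusted p under 0.05 over all probe sets, where 0.00901% of all probe sets passed as lower. At an adjusted p under 0.1 none passed either, against 0.198% of all probe sets. At an unadjusted p under 0.05, which does not control false discoveries, 4 of 5 members were lower, against 6.35% of all probe sets. For 4 of 5 members every CKO array lay below every control array, which held for 8.48% of all probe sets. The median log2 fold change was -2.01 for the members and 0.06 for all probe sets.

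**Figure D1:**
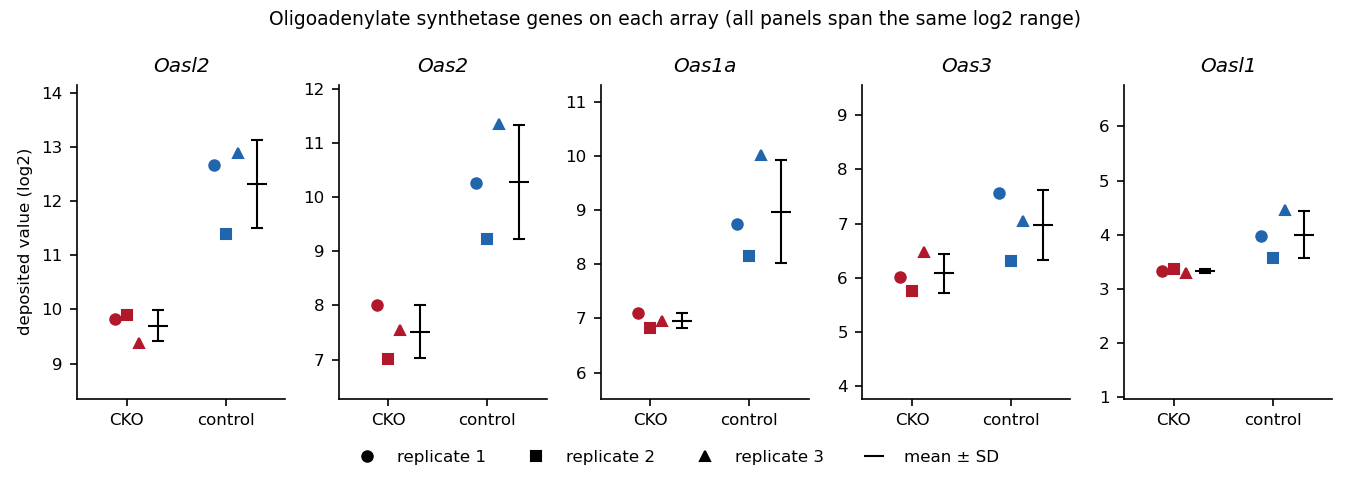
Deposited log2 value of each synthetase gene on each array, CKO at the left and control at the right of each panel, with a marker per replicate number and the mean ± SD of 3 arrays. CKO arrays lie below all control arrays for every gene but Oas3, and control replicate 2 is the lowest control in each panel.

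Oasl2 encodes a synthetase with a ubiquitin-like tail that, in the mouse, is enzymatically active. It stood at 9.83, 9.90 and 9.37 on CKO replicates 1, 2 and 3, against 12.67, 11.39 and 12.89 on control replicates 1, 2 and 3. The groups were separated by 1.49 on the log2 scale, and the CKO arrays were close together. The log2 fold change was -2.62 (SE 0.42, limma adjusted p = 0.102), the smallest p of the family, which ranked at place 45 of all probe sets.

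Oas2 encodes a larger synthetase built from duplicated enzyme units. Its values were 8.0, 7.01 and 7.54 on the CKO arrays and 10.25, 9.23 and 11.34 on the control arrays. The groups did not overlap, with a gap of 1.23, but both were spread more widely than those of Oasl2. Its log2 fold change of -2.76 (SE 0.52, limma adjusted p = 0.121) had the widest interval among the members, from -3.96 to -1.56 at 95% confidence.

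Oas1a is an active single-unit synthetase of the mouse Oas1 cluster. CKO arrays gave 7.10, 6.83 and 6.95, against 8.74, 8.16 and 10.01 on control arrays. The 3 CKO values agreed within 0.14 (SD), while the controls varied by 0.95 (SD), mainly through control replicate 3. The log2 fold change was -2.01 (SE 0.45, limma adjusted p = 0.173).

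Oas3 encodes the longest synthetase, which favours long double-stranded RNA. It measured 6.01, 5.76 and 6.47 on the CKO arrays and 7.57, 6.30 and 7.05 on the control arrays. Here the groups overlapped, since CKO replicate 3 lay above control replicate 2. The log2 fold change of -0.89 (SE 0.38) had an adjusted p of 0.496 in limma.

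Oasl1 encodes a family member without enzyme activity in the mouse, known there as a brake on translation of Irf7 mRNA. Its probe set read 3.34, 3.37 and 3.29 on CKO arrays and 3.98, 3.58 and 4.46 on control arrays. All 6 values lay near the bottom of the arrays, in the lowest 0.214% of probe sets on each CKO array and the lowest 5.29% on each control array. The groups did not overlap, but the gap was only 0.21 and levels this low are uncertain. The log2 fold change was -0.67 (SE 0.30, limma adjusted p = 0.511). Irf7 itself, the interferon regulatory factor that amplifies interferon production, was at 6.31 ± 0.72 in CKO and 9.68 ± 1.30 in control (SD, n = 3 each; limma adjusted p = 0.121).

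The calls depended on single arrays. Without CKO replicate 1, Oasl2, Oas2 and Oas1a passed in limma (adjusted p = 0.0152, 0.0181 and 0.0349), in a setting where 4.94% of all probe sets passed as lower. The CKO group then held only the arrays with the narrow value range. Without control replicate 2, the lowest control for every member, Oasl2 and Oas2 passed in limma (adjusted p = 0.0219 and 0.0384), against 0.563% of all probe sets. Leaving out any of the other 4 arrays gave no member a call, and adjusted p for Oasl2 reached 0.521 without control replicate 3. Under every setting tried and for every member it kept, the log2 fold change stayed below 0. For the 4 members whose groups did not overlap, leaving out arrays could not have changed that sign.

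**Figure D2:**
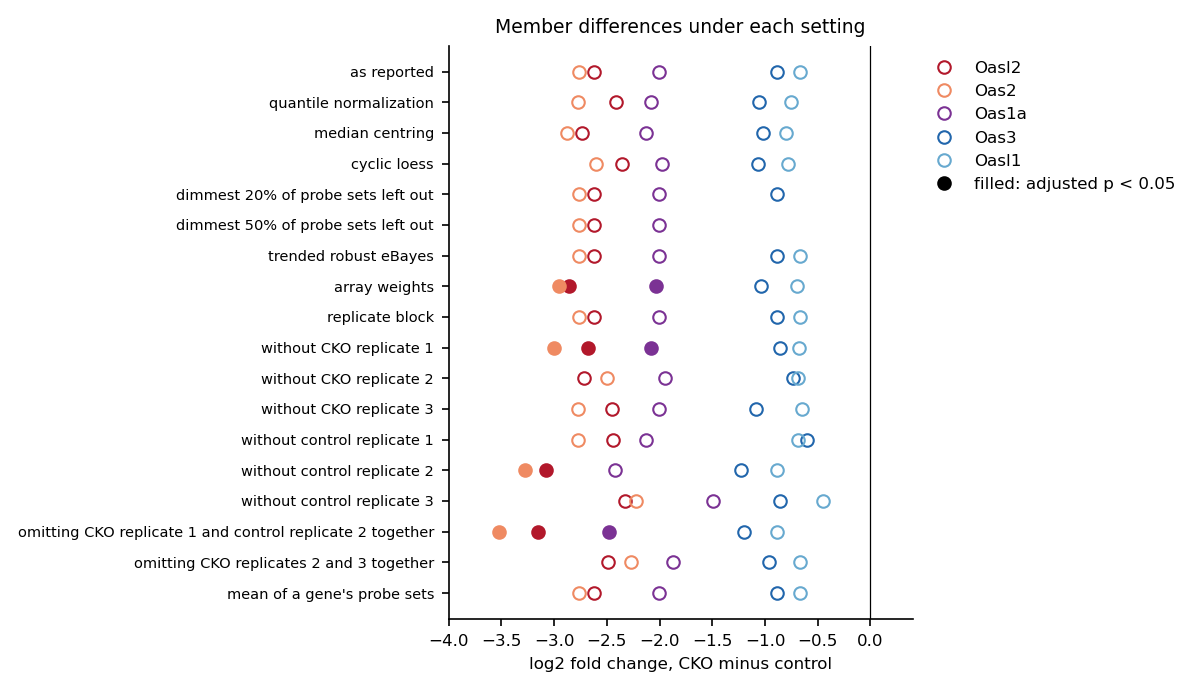
Log2 fold change (CKO minus control, x axis) of each synthetase gene under each setting (rows), with filled symbols where the adjusted p over all probe sets was under 0.05. All points lie below 0, with Oasl2, Oas2 and Oas1a between -3.52 and -1.49 and Oas3 and Oasl1 between -1.23 and -0.45.

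On the control arrays the members varied alike, with control replicate 2 lowest for each and replicate 3 highest for all but Oas3. On the CKO arrays their order differed: Oasl2 was highest on CKO replicate 2, where Oas1a was lowest. Each member had a larger SD in control than in CKO, as for Oas1a (0.95 against 0.14). Correlations after removal of the group means therefore rest mainly on the control arrays. Over the 6 arrays, Pearson correlations between members ran from 0.756 to 0.986, and after removal of the group means from 0.368 to 0.969, given as a description of 6 arrays that share the group difference. The lowest values belonged to pairs with Oas3. Relative to its mean over 6 arrays, the mean of the members was -0.75, -1.04 and -0.89 on CKO replicates 1, 2 and 3. It was 1.03, 0.12 and 1.54 on control replicates 1, 2 and 3, so control replicate 2 lay between the other controls and the CKO arrays.

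The estimated differences ran from -2.76 for Oas2 to -0.67 for Oasl1, and whether they were unequal could not be settled with 3 arrays a group. The smallest p that an exact two-sided permutation test allows at that size is 0.1, and after Benjamini-Hochberg adjustment over the 10 pairs of members the smallest value was 0.143. Pairs with Oasl1 say little, since its values lay near the bottom of the arrays. Of the 6 pairs without Oasl1, 4 had within-array differences that did not overlap between CKO and control arrays, which gives that smallest p. These set Oasl2, Oas2 and Oas1a against Oas3, and Oas2 against Oas1a. The gap in log2 fold change was 1.86 between Oas2 and Oas3. It was 0.14 between Oas2 and Oasl2, with an exact permutation p of 0.8.

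The other 7 Oas genes on the array, all copies in the Oas1 cluster, were less uniform. Their median log2 fold change was -0.20, with 5 lower and 2 higher in CKO, and none passed over all probe sets. Some of these probe sets were dim: Oas1d and Oas1h lay in the lowest 6.01% of probe sets on every array, where a difference can hardly be seen. Without the dimmest 20% of probe sets, Oas1d, Oas1h and Oas1f among them, the median was -0.69 over 4 genes. Without the dimmest 50% it was -1.39 over 2 genes, Oas1b (-0.64) and Oas1g (-2.13). Both filters use the mean over CKO and control arrays, so a gene can pass through high control values alone. These medians are therefore descriptions, and whether dimness lowered the first median was not tested. At an unadjusted p under 0.05, 2 were lower, Oas1g and Oas1c, against 6.35% of all probe sets. None was higher at that threshold, against 3.55% of all probe sets. Oas1g, a second active copy, read 7.30, 6.99 and 7.95 on CKO arrays and 9.67, 8.41 and 10.55 on control arrays. Its groups did not overlap, and its log2 fold change of -2.13 (SE 0.53, limma adjusted p = 0.211) was close to that of Oas1a. These copies are near-identical in places, so their probe sets may share target sequence. The correlation between Oas1a and Oas1g over the 6 arrays was 0.964, and 0.872 within groups, and whether shared targets contribute was not tested.

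Oas1c, a copy without known enzyme activity, stood at 5.66, 5.94 and 6.09 in CKO and 6.67, 6.39 and 6.82 in control, without overlap (log2 fold change -0.73, SE 0.27, limma adjusted p = 0.436). Oas1b, the flavivirus resistance gene that RefSeq lists as a transcribed pseudogene in C57BL/6J, was at 9.11, 8.56 and 9.27 in CKO and 9.80, 9.03 and 10.04 in control. Its groups overlapped, and its difference of -0.64 did not pass (SE 0.35, limma adjusted p = 0.570). Oas1d, Oas1e, Oas1f and Oas1h differed by -0.07, 0.39, 0.03 and -0.20 on the log2 scale, with overlapping groups.

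All 12 genes lie on chromosome 5 in 2 clusters, Oasl2 with Oasl1 and the other 10 together. Inside the larger cluster, Oas1g and Oas1a stand between Oas1h and Oas1d, whose values lie near the bottom of the arrays, so that a difference near 0 says little there. The nearest measured protein-coding genes, 2 on each side of each cluster, differed by -0.58 to 1.48 on the log2 scale. Of these 8 neighbours none passed over all probe sets. At an unadjusted p under 0.05, 1 of them, 2610524H06Rik, was higher in CKO, against 3.55% of all probe sets. None was lower at that threshold, against 6.35% of all probe sets. The neighbours were looked up after the members' values had been seen.

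**Figure D3:**
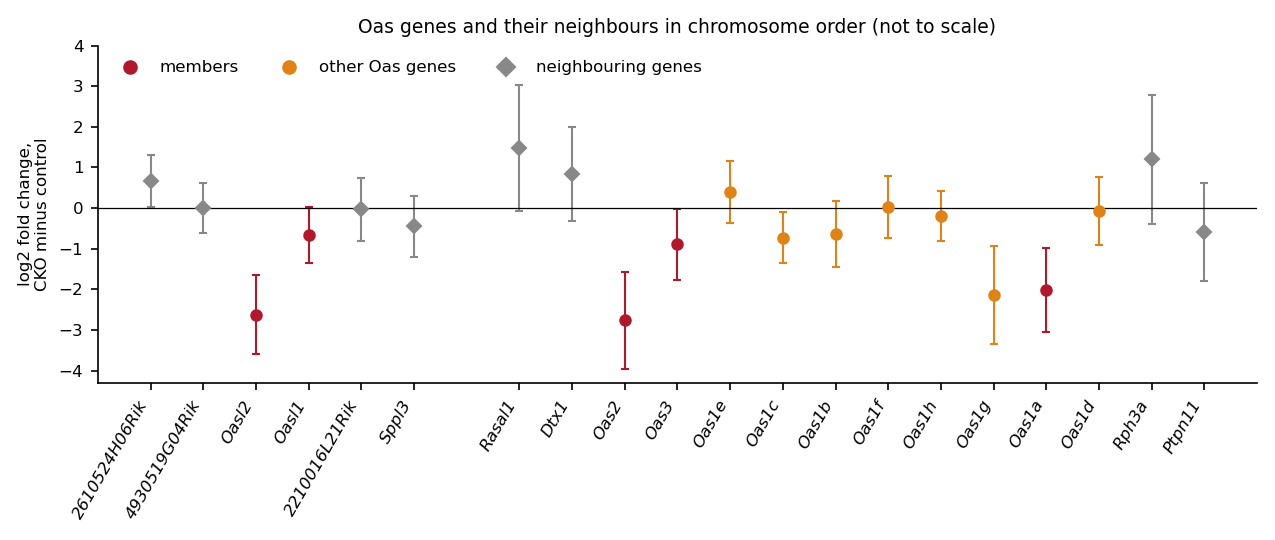
Log2 fold change (CKO minus control) with its 95% confidence interval for the Oas genes and the nearest measured genes, in their order along chromosome 5, with the Oasl cluster at the left and the Oas1 to Oas3 cluster at the right. Oasl2, Oas2, Oas1g and Oas1a lie at -2.01 or below, while the neighbouring genes lie between -0.58 and 1.48.

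A pair of genes tied to the turnover of the signal and of ribosomes had overlapping groups. Abce1, an ATPase that recycles ribosomes, was at 12.40 ± 0.22 in CKO and 12.41 ± 0.18 in control (SD, n = 3 each), with a 95% interval of the difference from -0.62 to 0.61. Akap7, known in the mouse to degrade oligoadenylates, was at 11.98 ± 0.57 in CKO and 11.63 ± 0.43 in control (interval -0.51 to 1.21).

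Upstream of the synthetases, many interferon genes were dim: of the 19 measured, 11 remained without the dimmest 20% of probe sets and 3 without the dimmest 50%. To 2 decimals, 15 of the 19 were higher in CKO, 3 were lower and Ifna13 was at 0, with a median of 0.20 on the log2 scale. None passed over all probe sets, and directions read from the dim genes among them carry little weight. The median was 0.41 over the 11 genes left without the dimmest 20%, and 0.59 over the 3 left without the dimmest 50%. Both filters use the mean over CKO and control arrays, so these medians are descriptions. Ifna16, an interferon-alpha gene, had the second smallest p, with a log2 fold change of 0.86 (SE 0.40, limma adjusted p = 0.526). Ifna7 and Ifna5 came next, at 0.41 (SE 0.27) and 0.59 (SE 0.39), with limma adjusted p of 0.617 and 0.621. Only for Ifna7 did every CKO array lie above every control array, which held for 1319 of all 22206 probe sets. Ifnb1, which encodes interferon-beta, lay in the lowest 10.7% of probe sets on each array, at 4.44, 5.06 and 4.43 on CKO arrays and 4.87, 4.19 and 4.26 on control arrays, with overlap. Ifng, a product of T and NK cells, was the only one at an unadjusted p under 0.05, with 6.68, 7.43 and 6.46 in CKO against 9.15, 7.43 and 7.76 in control (log2 fold change -1.26, SE 0.48, limma adjusted p = 0.450). The median of this list depended on the arrays, at 0.62 without CKO replicate 1 and -0.35 with CKO replicate 1 as the only CKO array.

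Of 11 measured receptor and signalling genes, 10 were lower in CKO (median log2 fold change -0.64), and none passed over all probe sets. The median was -0.42 with cyclic loess and -0.37 with CKO replicate 1 as the only CKO array. At an unadjusted p under 0.05, where 6.35% of all probe sets were lower, 5 of the 11 were lower: Stat2, a subunit of ISGF3, at a log2 fold change of -1.98, and the kinases Jak2, Tyk2 and Jak1 and the receptor chain Ifngr2, at -1.04, -1.02, -0.72 and -0.70. The interferon receptor chains Ifnar1 and Ifnar2 differed by -0.64 and -0.48 (limma adjusted p = 0.543 and 0.598). Of 6 regulatory factors 5 were lower, 2 of them at an unadjusted p under 0.05, against 6.35% of all probe sets. These were the transcription factors Irf7 and Irf1, at -3.38 and -2.0 (both limma adjusted p = 0.121). Their groups did not overlap, with CKO below control, which held for 8.48% of all probe sets. The groups of Irf2, Irf3, Irf5 and Irf8 overlapped.

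Genes that act beside the synthetases had differences in the same direction. All 9 measured genes of double-stranded RNA sensing were lower, with a median of -1.20, 6 at an unadjusted p under 0.05 (6.35% of all probe sets) and none over all probe sets. Zbp1, a sensor of nucleic acids that can trigger cell death, Ifih1, the RNA sensor MDA5, Adar, which edits double-stranded RNA, and Dhx58 differed by -2.44, -1.34, -1.20 and -1.74. All 19 measured antiviral effectors were lower, with a median of -1.78, 18 at an unadjusted p under 0.05, against the same 6.35%, and none over all probe sets. Ifit3b, Ifit3, Ifit2 and Mx1, antiviral proteins, differed by -2.68, -2.77, -2.18 and -2.19. Of 5 feedback genes 4 were lower, among them Usp18, which limits interferon receptor signalling, at -2.10 (limma adjusted p = 0.140), while Pias1 differed by 0.30. The lists were chosen with earlier results of these data known, and their medians are descriptions beside 0.06 for all probe sets.

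**Figure D4:**
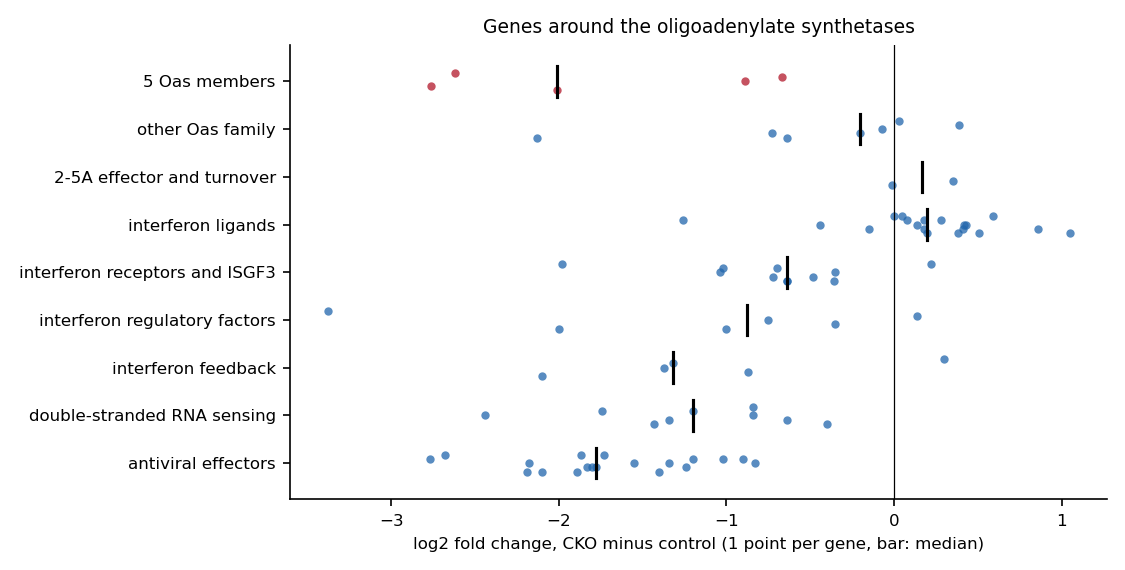
Log2 fold change (CKO minus control, x axis) of each measured gene, 1 point per gene, for the 5 synthetase genes and for the lists around them (rows), with a bar at each median. The medians are -2.01 for the synthetase genes, -1.78 for antiviral effectors, -0.20 for the other Oas genes (-0.69 without the dimmest 20% of probe sets) and 0.20 for interferon genes, many of which are dim.

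The 6 genes whose pattern over the 6 arrays was most like the mean of the members were Gm15448, Slamf6, Tap1, Tor3a, Usp18 and Trim25. Likeness was Pearson's r with the mean of the centred members, among 8985 genes that varied at least as much as the least variable member. It ran from 0.993 to 0.997, with Spearman's rho of 0.943 to 1 and r of 0.963 to 0.996 within groups. Without the pair of arrays farthest from the median, r was 0.966 to 0.998. Tap1, a peptide transporter of MHC class I loading, differed by -2.95 (SE 0.44, limma adjusted p = 0.0891) and had the smallest p of the 6. Slamf6, a receptor of lymphocytes, differed by -1.50 and Trim25, a ubiquitin ligase of RNA sensing, by -1.40. These are descriptions of 6 arrays that share the group difference.

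Markers of several kinds of leukocyte had lower values in CKO, as the synthetases did, but no marker passed over all probe sets, with a smallest limma adjusted p of 0.0745 in the T cell and monocyte lists. All 10 measured T cell markers were lower in CKO, and the mean log2 level of the list was 6.38 to 6.95 on CKO arrays and 8.32 to 10.29 on control arrays. On control replicate 2 the list deviated by 0.14 from its mean over 6 arrays, against 2.07 and 2.11 on control replicates 1 and 3. Cd3e, a signalling subunit of the T cell receptor, was at 6.48, 8.21 and 7.40 in CKO and 12.55, 9.59 and 12.45 in control. All 10 monocyte markers were lower too, with a mean level of 11.37 to 12.19 in CKO and 12.97 to 13.64 in control, and Lyz2 (lysozyme) was at 16.07 ± 0.64 in CKO and 18.08 ± 0.14 in control (SD, n = 3 each). All 8 NK cell markers were lower, at mean levels of 6.60 to 7.36 in CKO, which ended below the 7.47 to 8.60 in control. Of 7 B cell markers 6 were lower, at mean levels of 5.53 to 6.62 in CKO and 7.02 to 7.84 in control. Dendritic cell markers were lower in 8 of 8 genes, with mean levels of 6.17 to 7.27 in CKO and 7.61 to 8.09 in control. At an unadjusted p under 0.05, 6.35% of all probe sets were lower. So were 10 of the 10 T cell markers, 7 of 10 monocyte and 6 of 8 NK cell markers. For dendritic cell and B cell markers the counts were 3 of 8 and 2 of 7. Endothelial and neutrophil markers had the same counts, 3 of 8 and 2 of 7. At that threshold 1 endothelial marker and no neutrophil marker was higher, against 3.55% of all probe sets. No marker was listed at 0. The part of these cells in the synthetase values was not tested.

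Markers of resident brain cells, vessels and neutrophils were not lower throughout in CKO. Of 9 microglial markers 7 were higher in CKO, with mean levels of 16.41 to 17.10 in CKO and 15.87 to 16.43 in control. At an unadjusted p under 0.05, 2 microglial markers were higher, against 3.55% of all probe sets, and none was lower, against 6.35%. Neutrophil markers were lower in 5 of 7 genes, and their mean levels overlapped, at 15.49 to 15.78 in CKO and 15.70 to 16.29 in control. Astrocyte markers, 7 of 9 of them higher in CKO, overlapped widely, at 9.11 to 12.58 in CKO and 8.69 to 11.18 in control, as did oligodendrocyte markers, at 8.48 to 10.45 in CKO and 8.18 to 9.95 in control. All 8 neuronal markers were higher in CKO, 1 of them at an unadjusted p under 0.05, against the same 3.55%. Their mean levels were 8.78 to 10.77 in CKO and 8.0 to 9.75 in control. Endothelial markers, 3 of 8 of them lower in CKO, were at 7.61 to 7.79 in CKO and 7.69 to 7.85 in control. CKO replicate 1 and control replicate 2 had the highest mean levels of astrocyte, oligodendrocyte and neuronal markers. With both arrays left out, Oasl2, Oas2 and Oas1a differed by -3.15, -3.52 and -2.48. They passed in limma (adjusted p = 0.0023, 0.00307 and 0.00938), against 6.28% of all probe sets. That setting holds 2 arrays per group, and its CKO arrays are those with the narrow range. Control replicate 2 was also the lowest control for every member, so its omission raises each control mean whatever its content of those markers.

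**Figure D5:**
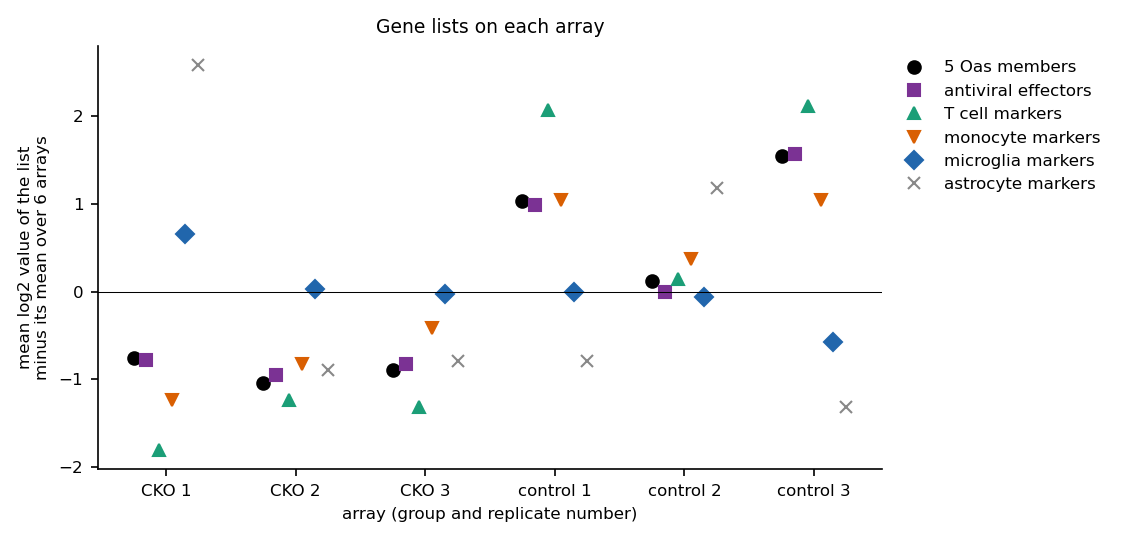
Mean log2 value of each gene list on each array (x axis, CKO at the left), minus the mean of that list over the 6 arrays. The synthetases and the antiviral effectors lie below 0 on all CKO arrays and at 0 or above on the controls, with control replicate 2 lowest among them, and astrocyte markers peak on CKO replicate 1 and control replicate 2.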

How the data were processed

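RNA of brain microglia was prepared with TRIzol and labelled with the Affymetrix WT PLUS kit, as the labels' protocols state. The deposited values are log2 expression levels that the authors computed with RMA, 1 for each probe set on each array, per the submitters' processing notes. Neither the RMA settings nor the annotation build were stated in these sources. The log2 scale was inferred here, since values ran from 2.93 to 19.93. The table had 22206 probe sets: 19572 named 1 gene symbol in the platform annotation, 0 named several and 2634 were unnamed here. All 19572 matched a RefSeq mouse gene table (GRCm38.p6) by Entrez gene number, which gave names and gene order. All 6 columns were assigned to samples.

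A linear model was fitted to all probe sets (limma 3.58.1, R 4.3.3, moderated by eBayes with no trend and no covariate) for the difference CKO minus control. Tests were two-sided and p-values were adjusted over the whole table by the Benjamini-Hochberg method, with a threshold of 0.05. The fit was tested on simulated data before use. Promoter windows were searched and aligned with Biopython 1.88. The members, gene lists and alternatives were chosen with earlier results of these data known. The rule for named genes took all members and other Oas genes, up to 4 genes with the smallest p of each pathway list, up to 2 markers of highest mean per marker list, and the 6 genes most like the members. Ifnb1, Ifnar1, Ifnar2, Ifngr2 and Pias1 were named in addition, after their values were seen. Same-numbered arrays deviated from their group means with correlations of -0.00548, -0.23 and 0.254, so replicate numbers were not taken as pairs. Listed genes without a probe set by symbol were not analysed here. Alternatives were other normalizations, filters on dim probe sets, variance models, the replicate block and arrays left out.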

Additional observations from a re-analysis of the deposited data

How the results depend on the processing

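The log2 fold changes of the members were below 0 in all 82 values from 17 other settings, and 11 of these values passed at an adjusted p under 0.05 in limma. Many of these signs could not have differed. The dim filters, the trended variance model, the replicate block and the averaging of probe sets leave each log2 fold change unchanged by design. For the 4 members whose groups did not overlap, leaving out arrays cannot change the sign. The number of members that passed was 0 as reported. It was 3 with array weights, 3 with CKO replicate 1 and control replicate 2 both omitted, and 0 to 3 over the settings that left out 1 array; the cause was not tested. With array weights 1057 probe sets passed as lower and 637 as higher. The count at an unadjusted p under 0.05 ranged from 3 to 5. The median log2 fold change of the members was -2.62 after the dimmest 50% of probe sets were removed, Oas3 and Oasl1 with them (3 members left). That filter uses the mean over CKO and control arrays, and Oas1a passed it through its control values. Oas1a lay at percentiles 40.3 to 49 of probe sets on CKO arrays and 61.8 to 80.1 on control arrays. Without 1 array the median of the members was -2.42 to -1.49, lowest in size without control replicate 3. With the replicate block, 0 members passed and the median was -2.01. With CKO replicate 1 as the only CKO array, 0 members passed (smallest adjusted p = 0.291), and that array was assumed to vary as the controls do. Under the same settings, chosen for these genes after seeing the data, Oas1g stayed at -2.70 to -1.63 and Irf7 at -4.50 to -2.61. The median log2 fold change stayed at -1.39 to -0.10 for the other Oas genes, -0.89 to -0.37 for receptor and signalling genes, -1.42 to -0.35 for regulatory factors and -1.76 to -0.59 for feedback genes. Averaging probe sets per gene changed no member, since each has 1. Background levels per probe set were not used here, which limits what can be said of the dim Oasl1.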

Other observations

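Beside the 3 Oas genes, the 16-letter run of the Oas1a promoter occurred in the windows of Apol9a and Apol9b, apolipoprotein L genes. Apol9a read 6.77, 7.54 and 7.67 on CKO arrays and 6.62, 6.25 and 7.32 on control arrays, and Apol9b 5.70, 6.41 and 6.47 on CKO arrays and 6.07, 4.88 and 6.35 on control arrays. Both overlapped between the groups, with log2 fold changes of 0.60 (SE 0.38) and 0.43 (SE 0.43), and neither passed in limma (adjusted p = 0.610 and 0.734). These genes were looked up after the promoter search, and their probe sets may share target sequence.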
